A study of Mus musculus with 2 samples.

Results

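Galanin (Gal), neurotensin (Nts), thyrotropin-releasing hormone (Trh), the tachykinin precursor Tac1, proenkephalin (Penk), the PACAP precursor Adcyap1, prepronociceptin (Pnoc), vasoactive intestinal peptide (Vip), gastrin-releasing peptide (Grp) and vasopressin (Avp) are 10 hypothalamic neuropeptide genes of the 20210 genes in the deposited count table. They were taken by gene name, and all 10 were present. The data came from a single-cell RNA-seq experiment on CD-1 mice at postnatal day 10, with 1 library per genotype and 5 mice pooled in each library. Both genotypes carried Ins2-Cre and 1 copy of a tdTomato reporter, and live red-fluorescent cells of the arcuate nucleus and median eminence were sorted before capture. The Control library had no further allele, and the Irx3/5dHet library came from mice that were in addition heterozygous for both Irx3 and Irx5, a pair of homeobox transcription factor genes. Ins2-Cre labels cells with activity of the Ins2 promoter at any earlier time, so both libraries hold that sorted subset and not the whole region. With 1 pool per genotype, genotype and pool cannot be told apart, no test across animals was possible, and the intervals below (95%) cover counting error only.

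Neuropeptide genes encode precursors that are sorted into dense-core vesicles, processed by proteases and released beside a fast transmitter, and a single neuron can hold several of them. Their products act on G protein-coupled receptors: galanin, enkephalin and nociceptin are known mainly for inhibitory signalling, while tachykinins, neurotensin, PACAP, VIP and GRP are mostly excitatory. In the hypothalamus, galanin is known from growth hormone-releasing hormone neurons, PACAP from the glutamatergic ventromedial nucleus, and VIP, GRP and vasopressin from the suprachiasmatic clock.

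After filtering, 3424 Control and 3874 Irx3/5dHet cells remained, with a median of 16723 and 17311 UMIs (unique transcript molecules) per cell. Cells were clustered without the 10 genes, Irx3 and Irx5, and 2264 Control and 2909 Irx3/5dHet cells fell into 20 neuron-like clusters, which are given by number and leading genes. Neuron-like cells made up 66.1% of the Control and 75.1% of the Irx3/5dHet cells. Irx3 and Irx5, the targeted genes, gave 92 and 179 UMIs over all Control cells against 42 and 106 over all Irx3/5dHet cells, at 0.402 (0.272 to 0.586) and 0.522 (0.407 to 0.667) of the Control level. In neuron-like cells they gave no more than 13 UMIs per library each. Most of their UMIs thus lay outside the neuron-like cells, whose share differed between the libraries. The ratios over all cells therefore mix cell composition with the level per cell. Arcuate genes marked clusters 1 (Agrp, Npy) and 10 (Pomc), while cluster 8 was led by genes known from the suprachiasmatic nucleus (Rgs16, Prok2, Rora) and cluster 24 by Foxb1, a mammillary gene. The libraries shared 4 barcodes among the kept cells.

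The 10 genes covered a wide range of levels and of concentration in few cells. Levels are summed UMIs of the gene per 1000000 UMIs (CPM) in neuron-like cells, and since a UMI marks 1 molecule at its 3' end they need no correction for gene length. Avp, Tac1 and Gal were the most abundant of the 10, at 193, 187 and 150.4 CPM in Control and 418, 242 and 191 CPM in Irx3/5dHet, and Grp, Penk, Trh and Nts were the lowest in Control, at 36.3, 36.8, 37.9 and 38.9 CPM. Pnoc was the most widely detected, with a UMI in 45.6% of Control and 45.1% of Irx3/5dHet neuron-like cells, whereas Vip was seen in 3.14% and 3.78%. A cell was called high for a gene when it held at least 10 UMIs and at least 500 CPM of it. High cells carried 98.5% of the Control and 98.8% of the Irx3/5dHet Vip UMIs, and 98.2% and 98.8% of the Avp UMIs. For Gal and Tac1 the high cells carried between 88.7% and 91.0%, for Nts and Grp between 79.7% and 88.0%, and for Trh 67.2% and 65.6%. Penk (51.1% and 64.2%) and Adcyap1 (49.7% and 53.6%) were split between high cells and a broad low level. High cells held only 14.7% and 20.1% of the Pnoc UMIs, so most Pnoc transcripts came from cells with a few molecules each.

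**Figure D1:**
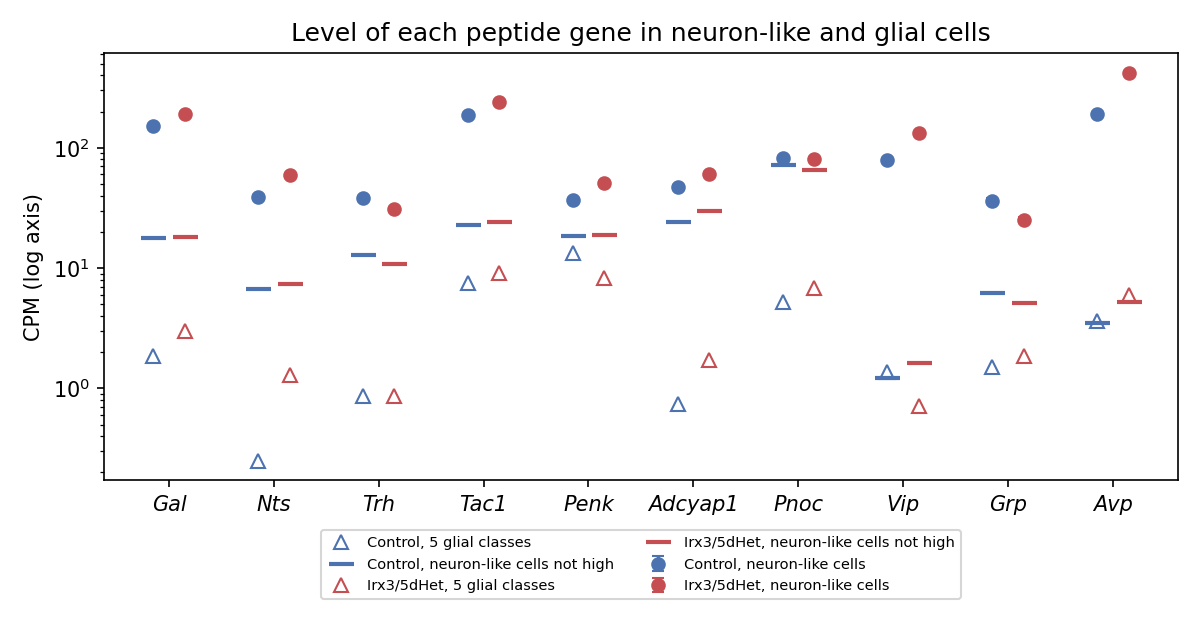
Level of each of the 10 genes in each library, in CPM on a log axis. Filled points are neuron-like cells with exact Poisson intervals, which are smaller than the points; dashes are neuron-like cells that are not high for the gene; triangles are the pooled glial classes, without intervals. Vip and Avp drop to between 1.21 and 5.19 CPM outside their high cells, while Pnoc stays at 71.6 and 65.9 CPM.

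Gal and Penk shared a home in cluster 17, which was led by Ghrh, the growth hormone-releasing hormone gene, Gal itself and Slc18a3, a vesicular acetylcholine transporter. Cells high for Gal numbered 104 in Control, or 4.59% (3.77 to 5.54) of neuron-like cells, and 153 in Irx3/5dHet, or 5.26% (4.48 to 6.13). Of these 257 cells, 57.2% lay in cluster 17, where 85.5% of all cells were high for Gal. Cluster 2, led by the transcription factors Tbx19 and Dlx1, held a further 17.1%, and cluster 12, led by the Wnt inhibitor Wif1, 8.56%. In the Gal-high cells Control levels ran from 508 to 9270 CPM per cell (median 2183), and Irx3/5dHet levels from 531 to 7501 CPM (median 3028). Most of them were GABAergic by transcript: 92.3% of the Control and 94.1% of the Irx3/5dHet Gal-high cells held more UMIs of Slc32a1, the vesicular GABA transporter, than of Slc17a6, the vesicular glutamate transporter. Over all neuron-like cells that share was 62.3% and 63.4%. The genes with the largest excess in Gal-high over other neuron-like cells, in both libraries, were Ghrh, the dopamine-synthesis gene Th, Slc18a3, the calcium sensor Scgn and the transporter Slc10a4. Ghrh stood at 5500 CPM (Control) and 7154 CPM (Irx3/5dHet) in Gal-high cells and at 10.9 and 5.19 CPM in the others.

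The Gal level of cluster 17 was 2939.6 CPM in Control and 3560.2 CPM in Irx3/5dHet, a ratio of 1.21 (1.17 to 1.25). Cluster 2 differed more, at 193 against 413 CPM, a ratio of 2.14 (1.97 to 2.32), with 16 of 232 Control and 28 of 230 Irx3/5dHet cells high for Gal. Its 5 cells with the most Gal carried 55.5% and 38.8% of the cluster's Gal UMIs, so that value rests on few cells.

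Penk-high cells numbered 40 in Control and 76 in Irx3/5dHet, with medians of 920.1 and 939 CPM per cell. With 1 more cell outside the neuron-like clusters, cluster 17 held 32.5% of them, cluster 9 (Grp, Lhx1) 30.8% and cluster 8 16.2%. Nearly all were GABAergic by transcript, 92.5% in Control and 96.1% in Irx3/5dHet. Penk stood at 279 and 269 CPM in cluster 17, a ratio of 0.967 (0.857 to 1.09), and at 175 and 337 CPM in cluster 9, a ratio of 1.93 (1.72 to 2.17). In cluster 12, no Control cell and 6 Irx3/5dHet cells were high for Penk, and its level was 10.5 against 86.7 CPM, with 82.3% of the Irx3/5dHet UMIs in 5 cells. Penk was thus unequal between the libraries in clusters 9 and 12 and near equal in cluster 17.

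**Figure D2:**
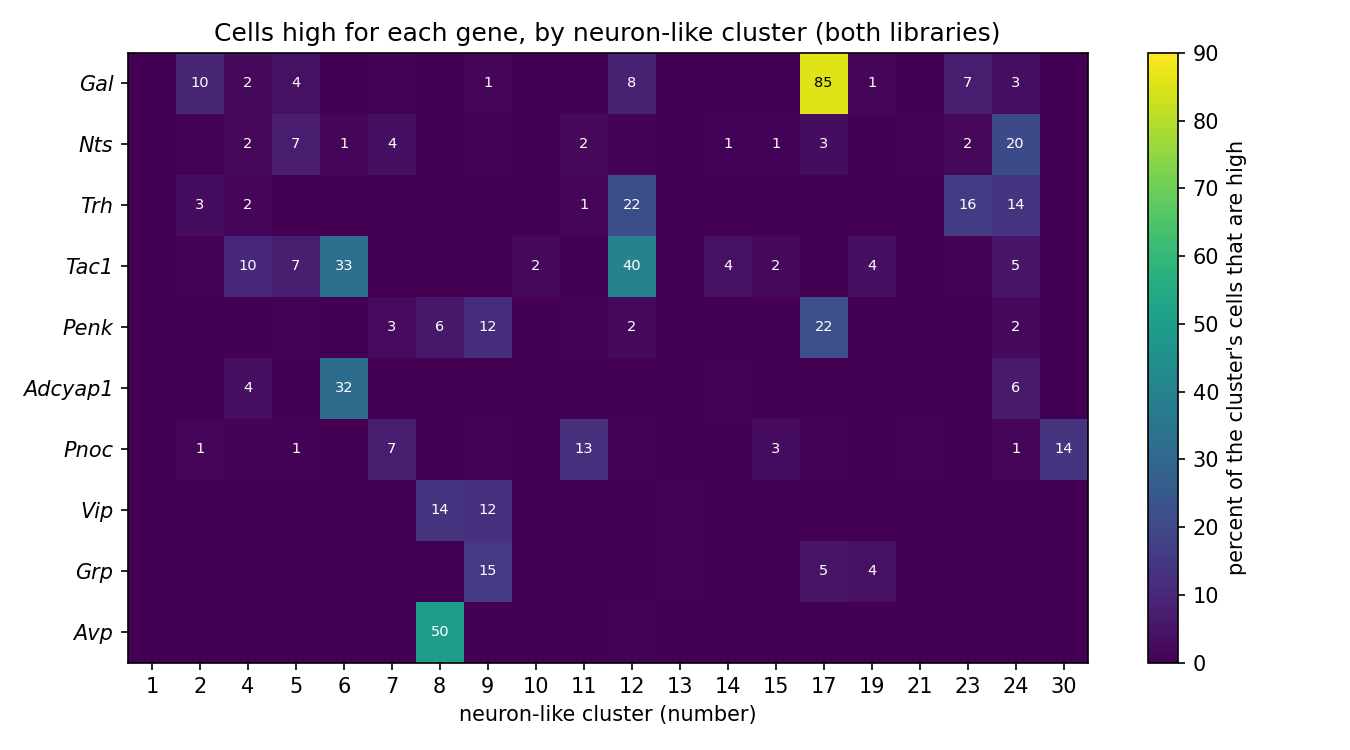
Percent of the cells of each neuron-like cluster (columns, by number) that are high for each of the 10 genes (rows), both libraries pooled; values of at least 1% are printed. Gal peaks in cluster 17, Avp in cluster 8, and Tac1 in clusters 6 and 12.

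Tac1 and Adcyap1 met in cluster 6, led by Adcyap1, the synaptic organiser Cbln1, the ventromedial transcription factor Fezf1 and Bdnf. Tac1, which encodes substance P and neurokinin A, had 133 high cells in Control, 5.87% of neuron-like cells, and 198 in Irx3/5dHet, 6.81%. A further 5 high cells lay in unnamed shallow clusters. Of the 336 cells, cluster 6 held 36.0%, cluster 12 held 31.3% and cluster 4 (Vgll2, Cbln2) 11.9%. Tac1-high cells ranged from 500.1 to 9061 CPM in Control (median 1410) and from 513 to 12111 CPM in Irx3/5dHet (median 1987). They fell on both sides of the transmitter divide: 54.1% of the Control and 59.1% of the Irx3/5dHet Tac1-high cells held more Slc17a6 than Slc32a1. In cluster 6 Tac1 stood at 869 and 1168 CPM, a ratio of 1.34 (1.29 to 1.40), and in cluster 12 at 1099.9 and 1310.5 CPM, a ratio of 1.19 (1.14 to 1.25).

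Adcyap1 was narrowly placed: 84.2% of its 139 high cells lay in cluster 6 and 10.8% in cluster 4. Each of the 48 Control and 91 Irx3/5dHet Adcyap1-high cells held more Slc17a6 than Slc32a1. Levels in these cells were modest, with medians of 732 and 745 CPM and maxima of 1435 and 3966 CPM. In cluster 6 the gene stood at 434 CPM in Control and 466 CPM in Irx3/5dHet, a ratio of 1.07 (1.01 to 1.14). In cluster 4 it was lower in Irx3/5dHet, at 118 against 75.2 CPM, a ratio of 0.639 (0.557 to 0.733). Tac1, Bdnf, Cbln1, Slc17a6 and the guanine deaminase gene Gda were the genes with the largest excess in Adcyap1-high cells. Over the 20 neuron-like clusters the profiles most like that of Adcyap1, by Pearson correlation of log2 CPM, were those of the sulfotransferase gene Chst8 (0.88), the cholecystokinin receptor gene Cckbr (0.86) and Bdnf (0.86). These correlations describe 20 points that share libraries and depth.

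Tac1 and Adcyap1 are shown with the 250 bases before a RefSeq start site (build GRCm38.p6), because these genes shared more cells than any other pair of the 10. Tac1 lies on chromosome 6, plus strand, and the bases shown are chr6:7554811-7555060. Adcyap1 lies on chromosome 17, plus strand, and the bases shown are chr17:93198767-93199016, before the more upstream of its 2 listed starts. Capitals mark matches, on either strand, to the half-site of the cAMP response element (TGACG), the E-box bound by clock factors (CACGTG) and the AP-1 element (TGANTCA).
Tac1: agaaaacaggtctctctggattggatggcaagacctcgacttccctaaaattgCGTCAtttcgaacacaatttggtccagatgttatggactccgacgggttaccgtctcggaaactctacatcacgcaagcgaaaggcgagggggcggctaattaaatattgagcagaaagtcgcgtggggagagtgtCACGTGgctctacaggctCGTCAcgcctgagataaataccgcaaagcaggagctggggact
Adcyap1: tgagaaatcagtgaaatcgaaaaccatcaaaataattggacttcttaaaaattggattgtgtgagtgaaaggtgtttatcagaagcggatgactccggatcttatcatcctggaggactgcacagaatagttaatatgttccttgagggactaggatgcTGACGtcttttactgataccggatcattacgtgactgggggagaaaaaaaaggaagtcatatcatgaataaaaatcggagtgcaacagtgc
Tac1 held half-sites that began 197 and 43 bases before the start and an E-box at 61 bases, and Adcyap1 held a half-site at 91 bases. In the GENCODE gene annotation Tac1 begins at base 7554879, so its E-box and its nearer half-site lie within the annotated gene. The half-site occurred in 17.8% of the 32851 mouse windows of this length, the E-box in 6.02% and the AP-1 element in 6.75%. The match is a description of these letters and not of binding.

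Trh and Nts were spread over several clusters. Trh, which encodes the hormone that drives pituitary thyrotropin release, had 48 high cells in Control (2.12%) and 62 in Irx3/5dHet (2.13%), with medians of 923 and 925 CPM. Of these cells, 51.8% lay in cluster 12, 14.5% in cluster 23 (Trh, Ebf1, Nkx2-4), 12.7% in cluster 2 and 11.8% in cluster 24. The retinoid receptor gene Rxrg, the synaptic gene Unc13c and Chodl accompanied Trh, with Rxrg at 222 and 198 CPM in Trh-high cells against 26.7 and 19.7 CPM elsewhere. Trh stood at 270 and 254 CPM in cluster 12, a ratio of 0.942 (0.851 to 1.04), and at 361 and 245 CPM in cluster 23, a ratio of 0.678 (0.579 to 0.794).

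Nts-high cells numbered 31 in Control and 66 in Irx3/5dHet and lay in 12 and 13 clusters. The largest parts were 28.9% in cluster 5 (Crabp1), 19.6% in cluster 24 and 12.4% in cluster 7 (Bcl11b, Pthlh). About 65% of them were GABAergic by transcript (64.5% and 65.2%), close to neuron-like cells as a whole. In cluster 5 the Nts level was 176 CPM in Control and 189 CPM in Irx3/5dHet, a ratio of 1.07 (0.967 to 1.19). In cluster 24 it was 319 against 950.1 CPM, a ratio of 2.98 (2.62 to 3.39), from 4 high cells among 31 in Control and 15 among 63 in Irx3/5dHet. Cluster 24 itself was 1.37% of Control and 2.17% of Irx3/5dHet neuron-like cells, and 99.3% of its Control Nts UMIs came from 5 cells. Tac1 in the same cluster was 34.97 against 198 CPM, with 0 and 5 high cells, and Trh was 300.1 against 223 CPM, a ratio of 0.745 (0.635 to 0.875). The Control cell with the most Trh of its library, 148 UMIs, lay in this cluster, so the Trh ratio there rests on few cells too.

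Pnoc, the precursor of the opioid-like peptide nociceptin, was accompanied by the somatostatin gene Sst in its high cells. Its high neuron-like cells numbered 30 in Control and 58 in Irx3/5dHet, and 1 more lay outside these clusters. Cluster 11 (Sst, Itm2a, Cbln4) held 39.3% of the 89 cells and cluster 7 held 25.8%. Levels stayed near the threshold, with medians of 630.0 and 596 CPM and maxima of 1355 and 1317 CPM, so that the number of high cells for Pnoc depends on where the threshold lies. GABAergic cells by transcript were 27 of the 30 in Control and 57 of the 58 in Irx3/5dHet. Sst stood at 6951 and 10561 CPM in Pnoc-high cells against 1328 and 981 CPM in other neuron-like cells. Over the 20 neuron-like clusters, however, the genes most like Pnoc were Gtf2h5 (0.86), Actb (0.85) and Cks1b (0.84), and not Sst. In cluster 11 Pnoc was at 275 and 325 CPM, a ratio of 1.18 (1.08 to 1.30), and the share of its cells that were high was 7.38% and 16.9%.

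Vip, Grp and Avp occupied clusters 8 and 9, both high in Lhx1, a transcription factor of the suprachiasmatic nucleus. Avp was almost confined to cluster 8: 98.1% of its 157 high cells were there, and 51.5% of the Control and 48.3% of the Irx3/5dHet cells of that cluster were high for it. Avp-high cells numbered 68 of 2264 neuron-like cells in Control and 89 of 2909 in Irx3/5dHet. Their levels ran from 556 to 44236 CPM in Control, with a median of 6974, and from 848 to 232030 CPM in Irx3/5dHet, with a median of 11816. The genes Rora and Rorb, which encode nuclear receptors of the clock, the signalling regulator Rgs16, C1ql3 and Avpi1 accompanied Avp. Rorb stood at 1051 and 802 CPM in Avp-high cells and at 59.9 and 59.4 CPM in the others. Rgs16 differed between the libraries in these cells, at 1059 against 374 CPM.

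Vip-high cells numbered 31 in Control and 50 in Irx3/5dHet, with 53.1% in cluster 8 and 45.7% in cluster 9. The medians were 6552 and 10439 CPM, and the highest cells held 40508 and 70901 CPM. Grp-high cells numbered 27 and 36, of which 73.0% were in cluster 9, 12.7% in the Ghrh cluster 17 and 11.1% in cluster 19 (Ppp1r17, Pdyn). Their medians were 3149 and 2396 CPM, and here the Control library was the higher one. Grp, C1ql3, the cell-cycle inhibitor Cdkn1c, the synaptic vesicle gene Synpr and Lhx1os were the companions of Vip, and Grp was at 1243 and 1249 CPM in Vip-high cells against 27.5 and 13.9 CPM in the rest. Over the 20 clusters the genes most like Vip were Zic2, Zic5 and Amot, each with a correlation of about 0.90.

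Avp and Vip are shown with the bases before their RefSeq start sites because the differences between libraries were largest for these genes. Avp is on the minus strand (chr2:130582589-130582838) and Vip on the plus strand (chr10:5638968-5639217), and the capitals are as above.
Avp: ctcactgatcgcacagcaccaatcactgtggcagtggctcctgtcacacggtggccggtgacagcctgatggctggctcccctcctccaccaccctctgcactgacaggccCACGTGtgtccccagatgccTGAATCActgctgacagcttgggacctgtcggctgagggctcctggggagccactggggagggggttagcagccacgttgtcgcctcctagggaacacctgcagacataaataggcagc
Vip: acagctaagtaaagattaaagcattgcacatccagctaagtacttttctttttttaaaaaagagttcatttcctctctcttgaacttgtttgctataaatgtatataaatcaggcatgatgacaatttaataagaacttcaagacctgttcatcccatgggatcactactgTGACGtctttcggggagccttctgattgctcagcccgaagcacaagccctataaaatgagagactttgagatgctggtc
An E-box began 139 bases before the Avp start and an AP-1 element 119 bases before it, while Vip held a half-site of the cAMP response element at 79 bases. Windows before a start site were read for 7 of the 10 genes, and no window for the other genes was searched.

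Most pairs of peptides shared few or no cells. Among neuron-like cells 20.6% in Control and 24.5% in Irx3/5dHet were high for at least 1 of the 10 genes, and 3.75% and 5.47% for at least 2. Of the 45 pairs, 18 shared no high cell, and 7 shared at least 10 cells that were also at least 10% of the smaller list. The lists held 63 to 331 cells, so few shared cells can follow from list size alone, and no expected overlap was computed. Tac1 and Adcyap1 shared 80 cells, which were 24.2% of the Tac1-high and 57.6% of the Adcyap1-high cells, with 29 in Control and 51 in Irx3/5dHet. Gal and Penk shared 39 cells, or 15.2% of the Gal-high and 33.6% of the Penk-high cells. Vip and Grp shared 26 cells, 32.1% of the Vip-high and 41.3% of the Grp-high cells, with 9 in Control and 17 in Irx3/5dHet. The other pairs were Nts with Tac1 (16 cells), Nts with Gal (15), Trh with Tac1 (15) and Gal with Grp (10). When a high cell needed 20 UMIs and 1000 CPM, 2 of the 7 pairs still passed, Tac1 with Adcyap1 and Vip with Grp, and Gal with Penk was among those that did not. Vip and Avp, though both at home in cluster 8, shared 6 cells, 7.41% of the Vip-high and 3.82% of the Avp-high cells. Nts with Pnoc (9 cells) and Penk with Grp (8 cells) lay just below the count of 10. The shared cells had a median depth of 0.552 times that of all neuron-like cells for Vip with Grp, 1.39 times for Tac1 with Adcyap1 and 1.15 times for Gal with Penk, and the part of remaining doublets in these counts was not tested.

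Some of the 10 genes also shared high cells with peptide and amine genes outside the list. Gal and Ghrh were high together in 140 cells, 54.5% of the Gal-high and 91.5% of the Ghrh-high cells. In Control 79.4% of the Ghrh-high cells were also high for Gal, and in Irx3/5dHet all 90 of them were. Pnoc shared 55 cells with Sst, 62.5% of its high cells, and Penk shared 38 with Ghrh, beside its 39 with Gal. Cartpt, the precursor gene of the CART peptide, was high together with Gal in 70 cells, with Trh in 22 and with Nts in 19. Adcyap1 and Bdnf, a neurotrophin gene, shared 28 cells, 20.1% of the Adcyap1-high cells, fewer than Adcyap1 shared with Tac1. Gal and Th shared 0 cells in Control and 12 in Irx3/5dHet, of 41 Th-high cells in all. Th still stood at 160 CPM in Control and 211 CPM in Irx3/5dHet Gal-high cells, against 18.4 and 18.2 CPM in other neuron-like cells. The count of 0 therefore does not mean that Th was absent from Control Gal-high cells.

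**Figure D3:**
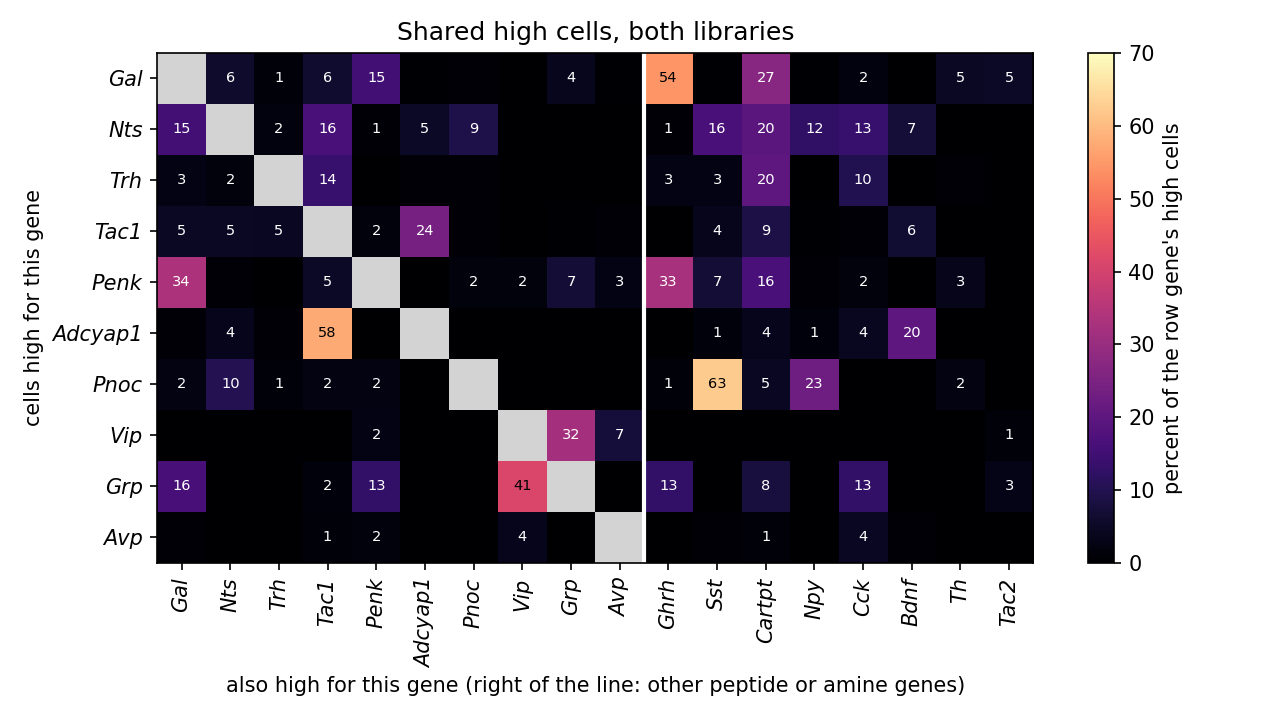
Percent of the cells high for the row gene that are also high for the column gene, both libraries pooled; values of at least 1% are printed. The bright squares are Adcyap1 cells with Tac1 (57.6%), Grp cells with Vip (41.3%), Pnoc cells with Sst (62.5%) and Gal cells with Ghrh (54.5%).

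Transcripts of broken cells float in the droplets and give stray UMIs, so the same genes were read in astrocyte-like, tanycyte-like, oligodendrocyte-like, oligodendrocyte precursor-like and ependymal-like cells. None of these 938 Control and 840 Irx3/5dHet cells was high for any of the 10 genes. Glia were shallower, with medians of 8004.5 and 7193 UMIs against 22807 and 21204 in neuron-like cells. For 9 of the 10 genes, Penk being the exception, the glial level was between 0.543% and 8.55% of the neuronal level. With every cell thinned to 4000 UMIs, Avp was seen in 1.14% of Control and 2.73% of Irx3/5dHet glia, against 4.18% and 5.24% of neuron-like cells (2.45% and 5.00% of glia unthinned). Vip was seen in 0.635% and 0% of thinned glia against 1.65% and 2.39% of neuron-like cells; with 733 Irx3/5dHet glia read, that 0 allows up to 0.409%. Outside the high cells, neuron-like cells held 3.48 and 5.19 CPM of Avp, against 3.61 and 6.02 CPM in glia, and 1.21 and 1.61 CPM of Vip against 1.37 and 0.716 CPM. In CPM, Avp outside the high cells was thus close to the glial level, as was Vip in Control. In Irx3/5dHet the Vip value was above the glial one, but the latter came from 5 UMIs (11 in Control), so that difference is uncertain. Equal CPM stands for more UMIs per cell in the deeper neuron-like cells, so whether these low counts are stray UMIs was not tested. By contrast, Pnoc outside its high cells stood at 71.6 and 65.9 CPM against 5.22 and 6.88 CPM in glia, and Adcyap1 at 24.3 and 29.5 against 0.746 and 1.72 CPM.

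Some non-neuronal classes held single peptide genes above the level of astrocyte-like cells. Penk was at 28.9 CPM in Control and 19.9 CPM in Irx3/5dHet tanycyte-like cells, which line the third ventricle, against 0.798 and 2.48 CPM in astrocyte-like cells. After thinning it was seen in 9.27% (6.29 to 13.0) of Control and 6.25% (3.54 to 10.1) of Irx3/5dHet tanycyte-like cells, with at most 7 UMIs in a cell. Tac1 was at 59.2 and 51.6 CPM in oligodendrocyte precursor-like cells against 2.40 and 4.61 CPM in astrocyte-like cells, and after thinning it was seen in 21.5% (13.1 to 32.2) and 16.9% (9.05 to 27.7) of them. In the same precursors Grp was at 12.9 and 16.01 CPM, from 10 and 9 UMIs, against 0 and 1.42 CPM in astrocyte-like cells. Pnoc was at 19.0 and 23.6 CPM in ependymal-like cells, from 15 and 12 UMIs, against 1.996 and 2.84 CPM in astrocyte-like cells. Pnoc reached 115 CPM in the 38 Control cells with pars tuberalis or pituitary markers and 53.2 CPM in the 12 such Irx3/5dHet cells. None of the cells of these classes was high for these genes.

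Between the libraries, 2 of the 10 genes were past 1.5-fold in neuron-like cells, both higher in Irx3/5dHet; that fold is read on log2 CPM with 5 CPM added, which understates changes of low genes. Of all 12318 genes tested, 0.122% were higher and 0.211% lower by that rule. The median log2 ratio of the 10 genes was 0.36, and that of all genes tested was -0.03. Over all kept cells 3 of the 10 (Nts, Vip and Avp) were past the fold, with 0.15% of 13339 genes higher and 0.48% lower. That count moves with the larger share of neuron-like cells in the Irx3/5dHet library as well as with the level per cell.

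Avp was at 193 CPM (10219 UMIs) in Control and 418 CPM (26473 UMIs) in Irx3/5dHet, a ratio of 2.17 (2.12 to 2.22). A single Irx3/5dHet cell of cluster 4 held 10120 Avp UMIs, 23.2% of its own 43615 UMIs and 38.2% of the Avp of the library, and the next cell held 899. That cell had 6 UMIs of the sister hormone gene Oxt and 1 of Vip. Without the top cell of each library Avp was at 179 and 258 CPM, a ratio of 1.44 and a log2 ratio of 0.51, below the fold. The share of high cells was nearly equal, with a ratio of 1.02 (0.735 to 1.42). Within cluster 8 the level was 5316 against 7143 CPM, a ratio of 1.34 (1.31 to 1.38), and 38.2% of the Control and 56.2% of the Irx3/5dHet Avp-high cells exceeded 10000 CPM. The higher Avp of the Irx3/5dHet library thus lay in the level per cell and in 1 cell, beside a nearly equal share of Avp-high cells.

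Vip was at 79.1 CPM (4199 UMIs) and 132 CPM (8349 UMIs), a ratio of 1.67 (1.61 to 1.73), with a share ratio of high cells of 1.26 (0.786 to 2.03). Its log2 ratio was 0.70, and 0.77 without the top cell of each library. It fell below the fold, to 0.49, with cells thinned to 4000 UMIs, and to 0.21 in cells of middle depth (UMI totals from the 25th to the 75th percentile), where Avp was at 0.19. In cluster 8 Vip was at 1752 and 2856 CPM, a ratio of 1.63 (1.56 to 1.70), and in cluster 9 at 358 and 467 CPM, a ratio of 1.31 (1.20 to 1.42). The immediate early genes, which respond to cell activity and to dissociation, went the other way in the same cells. In cluster 8 all 12 of those measured were lower in Irx3/5dHet past the fold, where 2.4% of 8086 genes were, and their summed level was 2643 against 710.0 CPM. Over neuron-like cells 8 of 14 were lower past the fold, with a median log2 ratio of -0.64, and their part in the Vip and Avp values was not tested. Without the 4% of barcodes with the highest doublet score in each library, the log2 ratios of Vip and Avp were 0.58 and 0.45, so that neither was past the fold.

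**Figure D4:**
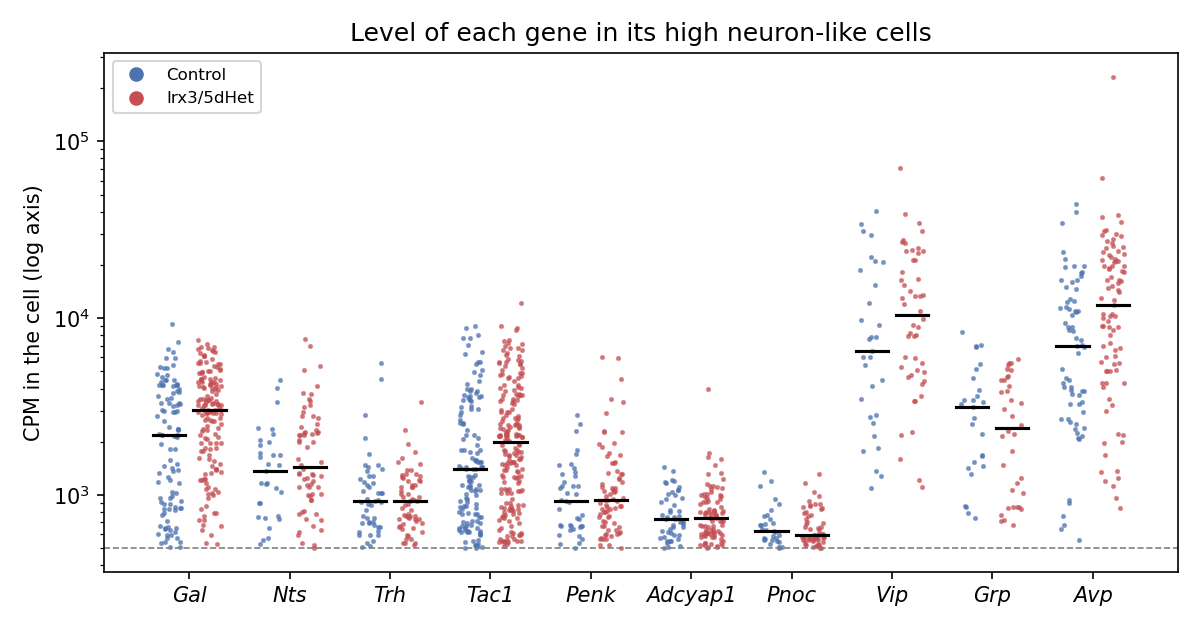
Each point is a neuron-like cell that is high for the gene, at its CPM in that cell on a log axis, Control and Irx3/5dHet side by side; black bars are medians and the dashed line is the 500 CPM threshold. The isolated Avp point at 232030 CPM is the Irx3/5dHet cell that held 10120 Avp UMIs.

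Among the other genes, Nts was at 38.9 and 59.7 CPM, a ratio of 1.54 (1.46 to 1.62), and its log2 ratio of 0.56 with 5 CPM added stayed below the fold. Without cluster 24 that log2 ratio was 0.05. It was past the fold in 8 of 14 alternative settings, among them 0.61 with 1 CPM added, 0.74 with cells thinned to 4000 UMIs, 0.83 with cells weighted equally and 0.60 without the top cell of each library. Penk was at 36.8 and 50.8 CPM (log2 ratio 0.42), Tac1 at 187 and 242 CPM (0.36), Adcyap1 at 46.9 and 61.1 CPM (0.35) and Gal at 150.4 and 191 CPM (0.34). These 4 genes were higher in Irx3/5dHet by less than the fold. Pnoc was level, at 82.5 and 80.5 CPM with a ratio of 0.975 (0.936 to 1.02). Trh was at 37.9 and 30.7 CPM, a ratio of 0.811 (0.761 to 0.863) and a log2 ratio of -0.26. Without the 5 top cells of each library the Trh log2 ratio was -0.08. The 5 cells with the most Trh held 23.6% of its Control and 11.97% of its Irx3/5dHet UMIs. Much of the Trh difference thus rests on few cells. Grp was at 36.3 and 25.3 CPM, a ratio of 0.695 (0.650 to 0.743) and a log2 ratio of -0.45. Grp was lower in Irx3/5dHet both in cluster 9, at 561 against 357 CPM, and in cluster 17, at 135 against 48.8 CPM, although the share of Grp-high neuron-like cells was 1.19% and 1.24%. Few Grp-high cells lay in cluster 17, so its value rests on few cells. The 5 cells with the most Grp held 31.7% of its Control and 22.9% of its Irx3/5dHet UMIs. Its log2 ratio was -0.29 without the 5 top cells of each library and -0.14 with cells weighted equally.

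The share of high cells was larger in Irx3/5dHet, with an interval that leaves out 1, for 2 of the 10 genes. By the same rule 8.74% of 1270 genes with enough high cells had a larger and 29.5% a smaller share. Nts-high cells were 1.37% of Control and 2.27% of Irx3/5dHet neuron-like cells, a ratio of 1.66 (1.07 to 2.63). Adcyap1-high cells were 2.12% and 3.13%, a ratio of 1.48 (1.03 to 2.14). For both genes the interval held 1 without cluster 24 and also when a high cell needed 20 UMIs and 1000 CPM, where Gal (1.51, 1.12 to 2.06) and Tac1 (1.36, 1.03 to 1.80) were larger instead. Cluster 6, which held most of the Adcyap1-high cells, was itself 5.65% of Control and 8.25% of Irx3/5dHet neuron-like cells. Within it the share that was Adcyap1-high was 28.9% and 33.3%, a ratio of 1.15 (0.772 to 1.75). Penk (1.48, 0.996 to 2.23) and Pnoc (1.505, 0.952 to 2.42) had similar ratios with intervals that held 1.

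**Figure D5:**
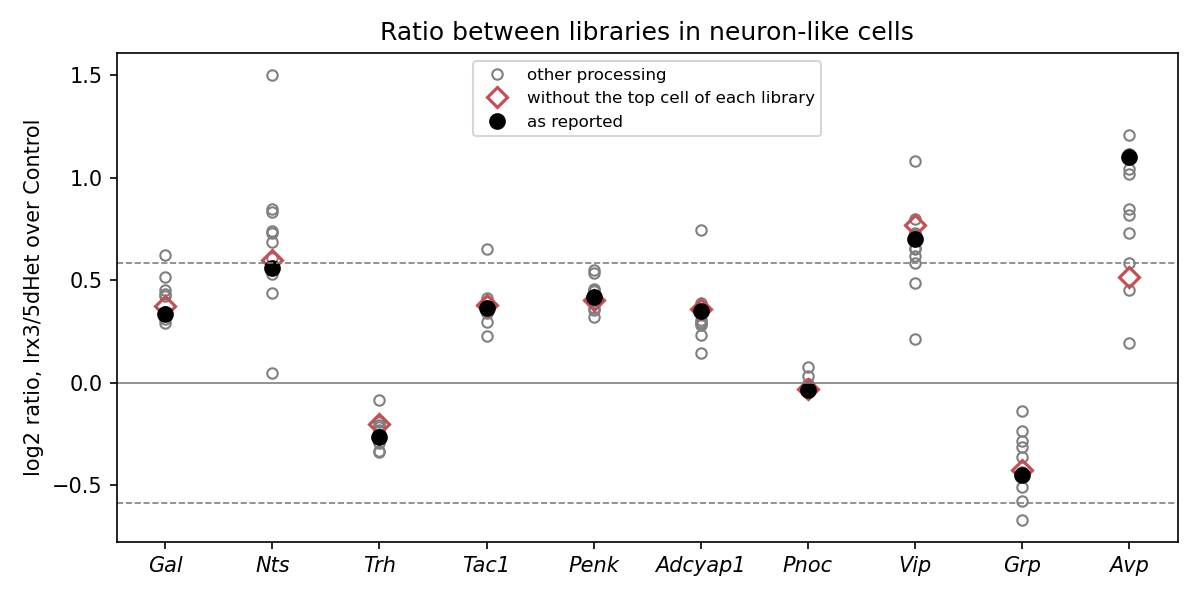
Log2 ratio, Irx3/5dHet over Control, of each gene in neuron-like cells. Black points are as reported and diamonds are without the top cell of each library, both with 5 CPM added. Open circles are the other processing settings, which include 1 and 20 CPM added in place of 5. Dashed lines mark 1.5-fold. Avp drops from 1.10 to 0.51 without 1 cell per library, and Pnoc sits at -0.03.

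Receptors of these peptides were measured beside them. Of 20 receptor genes, 18 had at least 50 UMIs in neuron-like cells, none was past the fold, and their median log2 ratio was -0.00. With 5 CPM added, a receptor of a few CPM can hardly pass the fold, and with 1 CPM added 2 receptors did. The most abundant in neurons was Oprl1, the nociceptin receptor gene, at 72.2 and 68.5 CPM, followed by the PACAP receptor gene Adcyap1r1 at 42.6 and 47.7 CPM and the kappa opioid receptor gene Oprk1 at 36.0 and 29.9 CPM. Vipr1 was close to absent, with 7 Control and 49 Irx3/5dHet UMIs, and the neurokinin receptor gene Tacr3 was at 4.28 and 2.46 CPM, a ratio of 0.576 (0.467 to 0.709). Glia held some receptors at far higher levels than neurons. Ntsr2, a neurotensin receptor gene, was at 922 and 891 CPM in astrocyte-like cells against 2.43 and 1.75 CPM in neuron-like cells, and Adcyap1r1 was at 358 and 249.7 CPM in astrocyte-like cells. In tanycyte-like cells the GRP receptor gene Grpr was at 70.8 and 70.2 CPM. There, 1 of 4 receptors measured was lower past the fold, Ntsr2, at 41.7 against 17.9 CPM, a ratio of 0.429 (0.297 to 0.607), where 1.11% of 5035 genes tested were lower. Of 9 genes for peptide processing and vesicle cargo none was past the fold in neuron-like cells, and the convertase genes Pcsk1 (ratio 0.977, 0.922 to 1.04) and Pcsk2 (0.879, 0.852 to 0.908) were close to level.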

How the data were processed

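The deposited table holds raw UMI counts per gene and barcode, and the counts are as the authors deposited them: Cell Ranger 3.0.2, per the file headers, and the mouse build mm10, per the submitters' processing notes, were used upstream. The 10 genes were identical in the merged table and in the deposited per-library matrices. Python 3.11.15 with scanpy 1.11.5 was used. Cells with fewer than 500 genes, over 20% mitochondrial UMIs or a Scrublet doublet call were removed, leaving 62708201 and 71137235 UMIs. Doublets were called on the per-library matrices (23 of 3582 and 31 of 3982 cells, 0.642% and 0.779%), of which 17 and 25 were in the merged table; the calls depend on the caller's random start. Clustering (2000 variable genes, 30 components, 15 neighbours, Leiden resolution 1) left out the 10 genes, Irx3 and Irx5. Clusters were named from marker lists; a limit on neuronal transcripts (0.3 of the all-cell level) was set after seeing the data.

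Levels are summed UMIs as CPM with exact Poisson intervals, ratios have exact conditional binomial intervals and shares Clopper-Pearson intervals, all at 95%. Genes were called past 1.5-fold on log2 CPM with 5 CPM added, among genes with at least 200 UMIs. Receptors in neuron-like cells were counted from 50 UMIs. For glia, cells were thinned to 4000 UMIs, which left out 352 and 235 cells. The code was tested on simulated data. Named companions were the 5 genes with the largest excess in high cells in both libraries; likeness was the Pearson correlation over clusters. The 10 genes, the gene lists and the rules were chosen with earlier results of these data known. Promoter sequences are from RefSeq (GRCm38.p6). Alternatives are given in the closing section; removing the top 4% of doublet scores or the top cell of each library was chosen after seeing the data.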

Additional observations from a re-analysis of the deposited data

How the results depend on the processing

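The count of genes past 1.5-fold in neuron-like cells (2, Vip and Avp) became 5 (Gal, Nts, Tac1 and Adcyap1 higher, Grp lower) when only cells of middle depth (UMI totals from the 25th to the 75th percentile) were used, and 0 without the 4% of barcodes with the highest doublet score, an alternative chosen after seeing the data. The count stayed at 2 with other genes in it when cells were thinned to 4000 UMIs (Nts and Avp) and without the top cell or the top 5 cells of each library (Nts and Vip), and Nts made it 3 in 4 further settings. Over all kept cells the count of 3 became 5 with the middle depths. Genes whose share of high cells differed went from 2 to 1 (Penk in place of Nts and Adcyap1) without cluster 24, and stayed at 2 with Gal and Tac1 in their place when a high cell needed 20 UMIs and 1000 CPM and with Penk in place of Nts without the highest doublet scores. Sharing pairs went from 7 to 2 (Tac1 with Adcyap1, Vip with Grp) when a high cell needed 20 UMIs and 1000 CPM, and to 11 at 5 UMIs and 250 CPM; the same 7 pairs were found under the other clusterings and doublet settings. Receptors past the fold went from 0 to 2 with 1 CPM added. The cause of these shifts was not tested. The share of all genes passing the same fold or high-share rule was computed for the main setting only. The counts under the other settings therefore cannot be set against such a share. Over 14 alternatives the log2 ratio kept its sign for 9 of the 10 genes and for Pnoc in 12. It ran from 0.05 to 1.499 for Nts, from 0.21 to 1.08 for Vip, from 0.19 to 1.21 for Avp and from -0.67 to -0.14 for Grp. For Trh it ran from -0.34 to -0.08, the latter without the 5 top cells of each library. No paired analysis was possible because each genotype has 1 library, and leaving out a replicate is likewise impossible. Apart from receptors, which were counted from 50 UMIs in neuron-like cells, genes with fewer than 200 UMIs were not called. Ratios at the level of single clusters rest on few cells.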

Other observations

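Of 17 other peptide and amine genes measured in neuron-like cells, 1 was higher and 1 lower past 1.5-fold. Pmch, the melanin-concentrating hormone gene of the lateral hypothalamus, was at 222 CPM in Control and 89.7 CPM in Irx3/5dHet, a ratio of 0.405 (0.392 to 0.418) whose interval covers counting error only. Only 2 cells in each library were high for Pmch, and they held 99.5% of its UMIs in both; 1 Control cell alone held 9649 and 1 Irx3/5dHet cell 4821. Outside these cells Pmch was at 1.00 and 0.411 CPM, so nearly all of the difference lay in those 4 cells. Pomc, the melanocortin precursor gene, was at 298 and 470.2 CPM, a ratio of 1.58 (1.55 to 1.61), with 69 and 154 high cells, and the Pomc-led cluster 10 was 4.196% of Control and 6.77% of Irx3/5dHet neuron-like cells. Tac2, the neurokinin B gene, was at 269 and 185 CPM, a ratio of 0.690 (0.673 to 0.707), with a log2 ratio of -0.53 that is below the fold.

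Clock-related genes and the immediate early gene Fos were looked up in Avp-high cells after other values of these cells had been seen. Per1 was at 51.2 CPM (55 UMIs) in the 68 Control and 21.6 CPM (27 UMIs) in the 89 Irx3/5dHet cells. Dbp was at 415 and 259 CPM and Fos at 1852 and 399 CPM, whereas Per2 was at 31.7 and 66.5 CPM (34 and 83 UMIs). These are 4 of the genes looked up, in 2 libraries with no replicate.

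A single Irx3/5dHet cell of cluster 13 (Tac2, Nhlh2) was high for Vip, and the 5 highest cells of that cluster held all 375 of its Vip UMIs, against 2 UMIs in the Control cells of the cluster.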
